A study of Mus musculus with 60 samples.

Results

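The genes described here are the constant regions of the gamma delta T cell receptor: Trdc, the only constant gene of the delta chain, and Tcrg-C1, Tcrg-C2 and Tcrg-C4, constant genes of the gamma chain. They were taken by symbol from a table of read counts per gene, as 4 of its 54532 genes, and their levels are given in each of 60 whole-tissue libraries. All samples came from female C57BL6/J mice of 6 weeks, untreated apart from anaesthesia and perfusion through the heart with EDTA in buffered saline before organs were taken. There were 4 replicates of each of 15 tissues: thymus, skin, small intestine, colon, female reproductive tract, blood (mononuclear cells by its library name, whole blood by its tissue label), spleen, bone marrow, lung, mesenteric lymph node, inguinal lymph node, liver, kidney, heart and brain. The study set out to follow immune processes across the organs of a whole animal.

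Most T cells carry a receptor made of an alpha and a beta chain, whose constant genes are Trac, Trbc1 and Trbc2. A smaller lineage carries a gamma and a delta chain instead, and is known for settling in epithelia early in life, as dendritic epidermal T cells in skin, as intraepithelial lymphocytes in the gut and in the uterus and other mucosae. In mice each gamma constant gene sits beside its own variable segments, so that the constant gene used depends on the variable segment joined. The segments of dendritic epidermal T cells, of the gamma delta cells of the uterus and of most intestinal gamma delta lymphocytes join Tcrg-C1. Of the segments used by circulating and lymphoid gamma delta cells, some join Tcrg-C2 or Tcrg-C4 and others Tcrg-C1. Tcrg-C1 is therefore not a marker of epithelial gamma delta cells alone. Receptor constant genes can also be transcribed without a functional chain, and Trdc lies inside the alpha chain locus.

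In the mm10 mouse genome Trdc (ENSMUSG00000104876, 4 exons) lies at chr14:54142851-54148868 on the plus strand, with Gm43434 and Trdv5 annotated on the opposite strand across it. Tcrg-C1 (ENSMUSG00000076749, 3 exons) lies at chr13:19214103-19217024 on the plus strand, Tcrg-C2 (ENSMUSG00000076752, 3 exons) at chr13:19304649-19307551 on the minus strand, and Tcrg-C4 (ENSMUSG00000076757, 4 exons) at chr13:19344558-19352756 on the plus strand. A further gamma constant, Tcrg-C3, was not one of the 4 genes and held 16 reads in all 60 libraries, 11 of them in thymus. The first 120 coding bases of the 3 gamma constants, all in the first exon, are shown from the GENCODE M21 annotation because their likeness limits what the counts can separate; capitals mark bases that differ from Tcrg-C1.
Tcrg-C1: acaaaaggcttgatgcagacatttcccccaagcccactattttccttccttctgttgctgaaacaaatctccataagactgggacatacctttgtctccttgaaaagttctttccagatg
Tcrg-C2: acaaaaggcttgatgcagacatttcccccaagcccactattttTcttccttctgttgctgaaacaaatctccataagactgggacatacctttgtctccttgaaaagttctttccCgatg
Tcrg-C4: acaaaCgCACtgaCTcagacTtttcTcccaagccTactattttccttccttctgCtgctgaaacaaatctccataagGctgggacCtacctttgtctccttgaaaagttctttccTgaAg
Tcrg-C2 differed from Tcrg-C1 at 2 of these 120 bases and Tcrg-C4 at 14. Over the whole coding sequence Tcrg-C2 and Tcrg-C1 were 97.4% identical, against 78.7% for Tcrg-C4 and Tcrg-C1. Libraries were primed at the poly(A) tail, and over the last 300 bases of the transcripts Tcrg-C2 was 93.6% identical to Tcrg-C1, with a longest shared run of 104 bases, and Tcrg-C4 was 59.2% identical to it, with a longest shared run of 9. Reads can therefore have been divided between Tcrg-C1 and Tcrg-C2 by the authors' counting, and the split between these 2 genes is uncertain, while Tcrg-C4 is separable.

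The median library total was 2649668 counts, with 353605 in the smallest (female reproductive tract replicate 3) and 5211133 in the largest (inguinal lymph node replicate 1). The 4 genes were sparse: Trdc held 1941 reads over all libraries, Tcrg-C1 1132, Tcrg-C2 1408 and Tcrg-C4 937, and all 4 passed the filter on low counts. Markers of the labelled organ were highest in their own tissue for 27 of 30 marker and tissue combinations; the lymph node chemokine gene Ccl21a was at 0 in both nodes, and Glycam1 ranked second in mesenteric node. Counting error, not biological spread, sets the precision of levels near 1 CPM, the unit of reads scaled to the total of their library. Female reproductive tract replicates 3 and 4 were shallow for their tissue (353605 and 1028920 counts, against 2851576 and 3134683 in replicates 1 and 2). Brain replicate 3 and liver replicate 4 held the intestinal defensin Defa24 at 394 and 241 CPM. Levels, changes, counts and shares that use these 4 libraries were therefore also computed without them, and the ratio tests use none of them. All colon libraries, blood replicate 1 and lung replicates 1 and 2 held fewer counts than tract replicate 4 and were not counted among them. Levels below are CPM after TMM scaling, which corrects for unequal library make-up. In whole tissue, fewer cells of a type and less RNA per cell cannot be told apart.

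Trdc was highest in thymus, the organ where gamma delta and alpha beta cells form, then in skin and then in inguinal lymph node. Its level was 88.8, 90.7, 100 and 57.8 CPM in the 4 thymus libraries. It was 15, 25.3, 20.4 and 19.9 CPM in skin and 11.1, 11.6, 8.18 and 17.5 CPM in inguinal node. No thymus library overlapped skin, the mean of thymus (84.3 ± 18.4 CPM, SD, n = 4 in each tissue here and below) being 4.19 times that of skin (20.1 ± 4.21 CPM), while skin and inguinal node (12.1 ± 3.93 CPM) overlapped. Blood (7.39 ± 0.619 CPM), spleen (7.27 ± 1.91 CPM) and mesenteric node (7.15 ± 0.671 CPM) followed with overlapping libraries. Bone marrow and small intestine, both at a mean of 4.79 CPM, came next, with all their libraries below every library of mesenteric node. Small intestine stood above every library of lung (1.72 ± 0.2 CPM). Colon held 3 reads of Trdc in its 4 libraries and the female reproductive tract 8, at means of 0.634 and 0.627 CPM. Brain, heart, kidney and liver held none, which allows levels of up to 0.225, 0.393, 0.263 and 0.524 CPM if 3 summed reads are taken as the limit.

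Tcrg-C1 shared the order of Trdc at the top. Its level was 48.7, 62.6, 57.9 and 26.6 CPM in thymus and 10.4, 11.9, 13.3 and 9.93 CPM in skin, so that thymus averaged 4.30 times skin without overlap. Small intestine followed with 12, 4.79, 4.32 and 7.06 CPM and inguinal node with 9.14, 6.99, 5.21 and 4.33 CPM, and these 2 tissues overlapped each other and small intestine overlapped skin. Spleen (3.99 ± 1.02 CPM), mesenteric node (3.8 ± 0.836 CPM), blood (2.18 ± 0.515 CPM) and lung (1.5 ± 1.03 CPM) were lower, with each overlapping the next. The female reproductive tract held 11 reads of it, bone marrow 6, colon 4, heart 2 and kidney 2, while brain and liver held none.

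Tcrg-C2 and Tcrg-C4 had inguinal lymph node, not skin, after thymus. Tcrg-C2 stood at 77.3, 78.7, 70.6 and 34.4 CPM in thymus and at 10, 8.04, 9.67 and 8.65 CPM in inguinal node, a ratio of means of 7.17. It averaged 7.39 ± 3.84 CPM in small intestine, 7.19 ± 1.21 CPM in spleen, 5.24 ± 0.301 CPM in mesenteric node, 3.98 ± 1.3 CPM in blood and 2.76 ± 1.55 CPM in bone marrow; spleen and mesenteric node were the only neighbours in this stretch without overlap. Skin ranked 10th for Tcrg-C2, with 1.15, 1.43, 3.06 and 3.31 CPM from 22 reads. Tcrg-C4 stood at 40.4, 36.8, 34.8 and 18.8 CPM in thymus and at 8.41, 8.47, 6.94 and 7.21 CPM in inguinal node, a ratio of 4.22. Spleen (5.98 ± 0.779 CPM), small intestine (5.97 ± 2.85 CPM) and mesenteric node (5.89 ± 1.19 CPM) had nearly the same mean Tcrg-C4, and every inguinal library lay above every spleen library. Skin ranked 7th for Tcrg-C4, with 4.22, 2.86, 4.08 and 4.25 CPM from 38 reads.

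**Figure D1:**
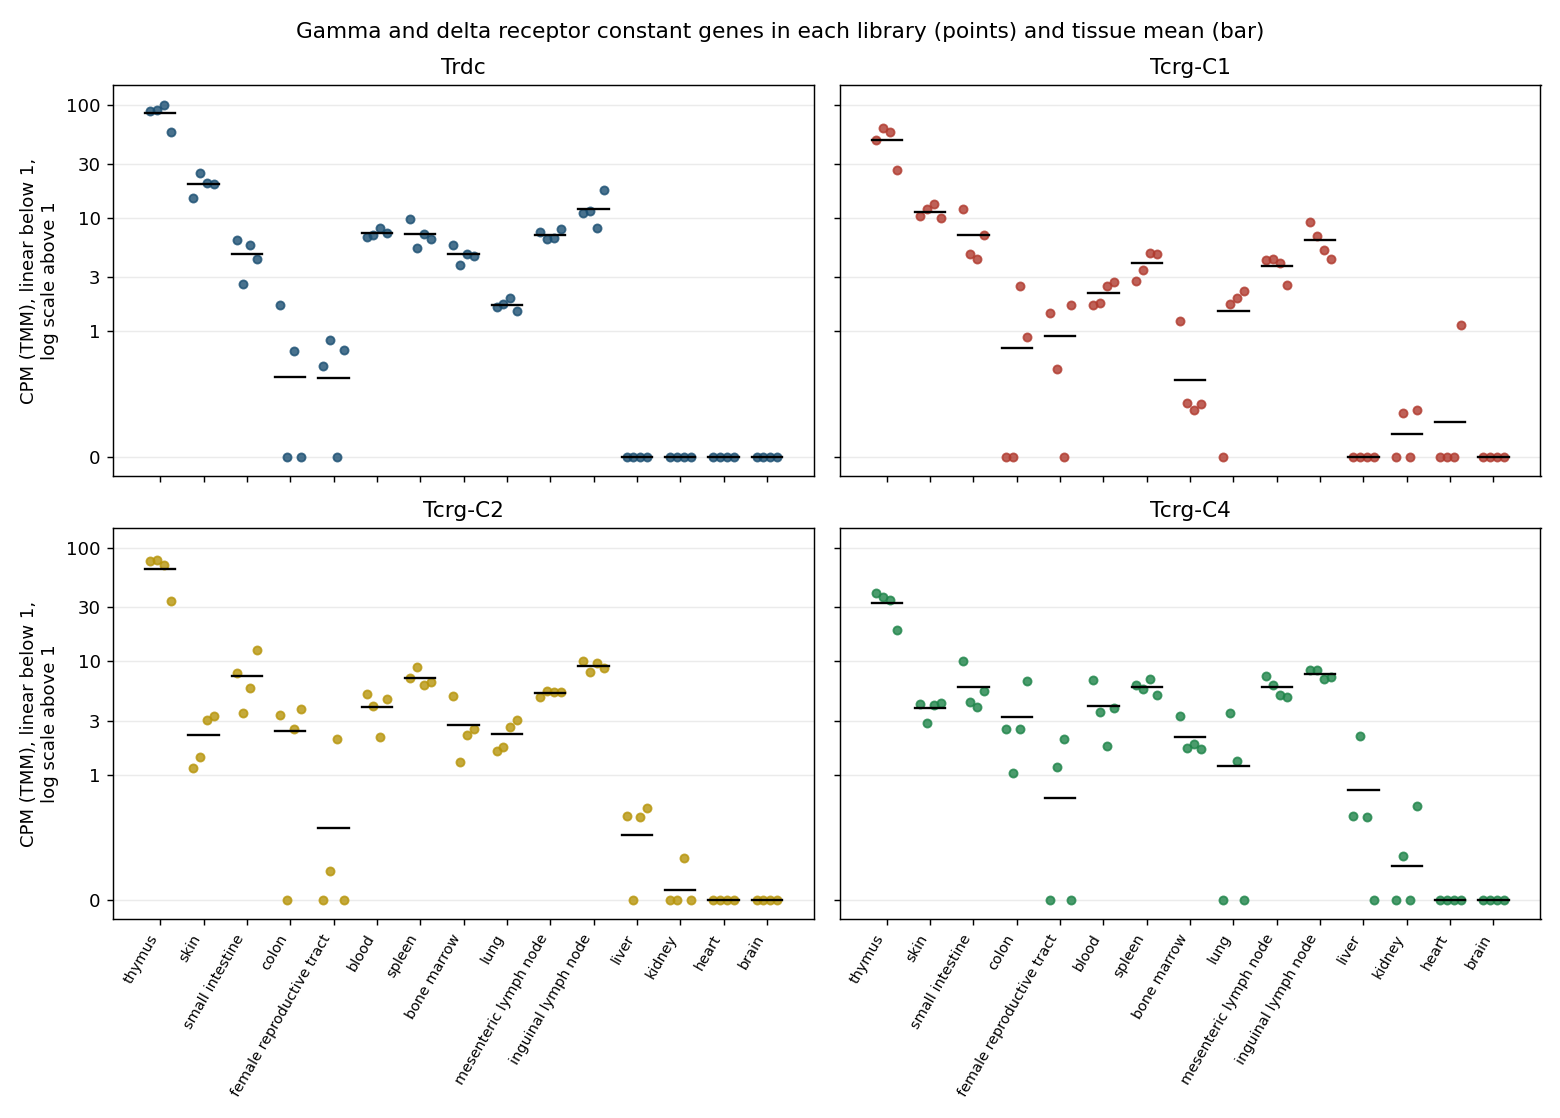
Level of each constant gene in CPM (TMM) in every library, with one point per library and a bar at the mean of the 4 libraries; the vertical axis is linear below 1 CPM and logarithmic above it. Thymus is highest in all 4 panels, skin is second for Trdc and Tcrg-C1 (20.1 and 11.4 CPM) and lies at 2.24 and 3.86 CPM for Tcrg-C2 and Tcrg-C4.

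Thymus replicate 4 was the lowest thymus library for all 4 genes. The same library was also lowest for Trac (271 CPM, against 432, 439 and 508 CPM in replicates 1, 2 and 3) and for Trbc1 (1009 CPM, against 1258, 1214 and 1304 CPM). It was not lowest for Trbc2 (2575 CPM, against 2423, 2333 and 2744 CPM). Among the invariant chains of the receptor complex it was lowest for Cd3g (360 CPM, against 395, 371 and 405 CPM), but not for Cd3e (449 CPM, against 416, 385 and 464 CPM) or Cd3d. Means of thymus without it were 56.4 CPM for Tcrg-C1 and 75.5 CPM for Tcrg-C2.

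Each tissue was then set against the average of the other 14, each given the same weight, by edgeR's quasi-likelihood test over 18562 genes, where a gene was called at a Benjamini-Hochberg adjusted p below 0.05 and a change above 1 on the log2 scale. The contrast is a difference of mean logs, so tissues without reads, 2 to 4 of the others for each constant, lower its reference. All 4 constants were called higher in thymus (adjusted p from 2.83e-35 for Trdc to 1.73e-25 for Tcrg-C4), where 18.9% of all genes were called higher. All 4 were also called higher in small intestine, inguinal node, mesenteric node and spleen, where 19.9%, 17.1%, 17.2% and 17.8% of all genes were. Skin had 3 called, with Trdc at an adjusted p of 2.16e-21 and Tcrg-C1 at 7.9e-15, but not Tcrg-C2 (0.0947), beside 18.4% of all genes. Blood had 3 called, without Tcrg-C1 (0.0532), beside 18.1% of all genes, and bone marrow had 1, Trdc, beside 17.6%. All 27 of these calls lay above the median of the other 14 tissues, but 12 lay below their plain mean, in which thymus weighs most: Trdc in small intestine (4.79 CPM, against a mean of 10.4 and a median of 3.26 CPM in the others), mesenteric node, spleen, blood and bone marrow, Tcrg-C1 in mesenteric node and spleen, Tcrg-C2 in mesenteric node, spleen and blood, and Tcrg-C4 in blood and skin (3.86 CPM, against a mean of 5.06 and a median of 2.67 CPM). Without blood replicate 1 Tcrg-C4 lost its call in blood (log2 change 0.94), and without bone marrow replicate 2 Tcrg-C2 was called there too (1.09). No constant was called higher in colon, lung, heart, kidney, liver, brain or the female reproductive tract, where 17.7%, 16.8%, 20.7%, 21.8%, 18.4%, 27.7% and 23.1% of all genes were; at an unadjusted p below 0.05 there was 1, in colon, where Tcrg-C2 (1.09) and Tcrg-C4 (1.25) were called without colon replicate 2.

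None was called lower in any tissue by this fit, and none had an unadjusted p below 0.05 in that direction, and a mean of logs that takes in tissues with 0 reads leaves this contrast unable to make such a call. The shares of all genes called lower by edgeR were 16.1% in brain, 12.9% in heart, 9.52% in kidney, 16.7% in liver, 5.31% in the female reproductive tract, 14.4% in colon, 12.3% in lung and 16.1% in bone marrow. They were 12.1% in thymus, 6.38% in skin, 8.5% in small intestine, 17.8% in blood, 9.16% in spleen, 4.58% in mesenteric node and 6.7% in inguinal node. Other tools treat zeros differently. DESeq2 called all 4 lower in brain, heart and kidney, beside 19.5%, 18.1% and 15.5% of all genes by the same tool, and 2 each in liver and the female reproductive tract, beside 20.2% and 5.58%. limma, with 2 counts added before the log, called 4 lower in each of brain, heart, kidney and liver, beside 19.9%, 18.6%, 13.3% and 23.7% of all genes. It called 3 lower in the female reproductive tract (beside 11.8%), 2 in colon (22.8%) and 1 each in lung (21%) and bone marrow (22.5%). limma called fewer constants higher in some tissues: 3 in small intestine and in spleen (beside 15.4% and 12.7% of all genes), 2 in skin, Trdc and Tcrg-C1 (14.6%), 2 in mesenteric node (10.9%), 1 in blood (14%) and 0 in bone marrow (13.9%), while thymus (13.6%) and inguinal node (11.9%) had 4.

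The second question was how much gamma delta receptor RNA a tissue holds beside its alpha beta receptor RNA, given as reads of a constant per 100 reads of Trbc1 and Trbc2 together. Library scaling cancels in this quantity. Because reads are taken near the end of each transcript, the value is compared between tissues only and is not a ratio of cells. Skin and small intestine had the highest values of Trdc. In skin there were 24.8, 39.6, 28.6 and 28.6 Trdc reads per 100 beta constant reads, and in small intestine 48.3, 11.3, 20.8 and 25. The 4 libraries of inguinal node had 1.44, 1.48, 1.38 and 2.15, and those of thymus 2.41, 2.56, 2.47 and 1.61, so that thymus, first in level, was close to the lymphoid organs in this ratio. Bone marrow averaged 9.27 ± 1.83 and lung 4.02 ± 0.675, while blood (2.22 ± 0.65), spleen (2.17 ± 0.5) and mesenteric node (1.74 ± 0.241) lay near inguinal node (1.62 ± 0.36).

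The gamma constants did not all share this order. Per 100 beta constant reads, Tcrg-C1 averaged 41.7 ± 33.8 in small intestine and 17.2 ± 2.04 in skin. It averaged no more than 3.68 in any other of the 9 tissues with enough beta constant reads and T cell RNA present. Brain also had at least 10 beta constant reads in every library but was left out by the second condition. Tcrg-C2 averaged 41.6 ± 27.9 in small intestine but only 3.3 ± 1.43 in skin, below lung (5.31) and bone marrow (5.29). Tcrg-C4 averaged 35.1 ± 28.1 in small intestine and 5.83 ± 1.05 in skin, and had its lowest of these values in thymus (0.88). Small intestine values rest on 191 beta constant reads in 4 libraries, 29 in the smallest, and its libraries spread from 15.6 to 89.7 for Tcrg-C1; skin rests on 648. Without small intestine replicate 1 the means there were 25.7 for Tcrg-C1 and 21.5 for Tcrg-C4.

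**Figure D2:**
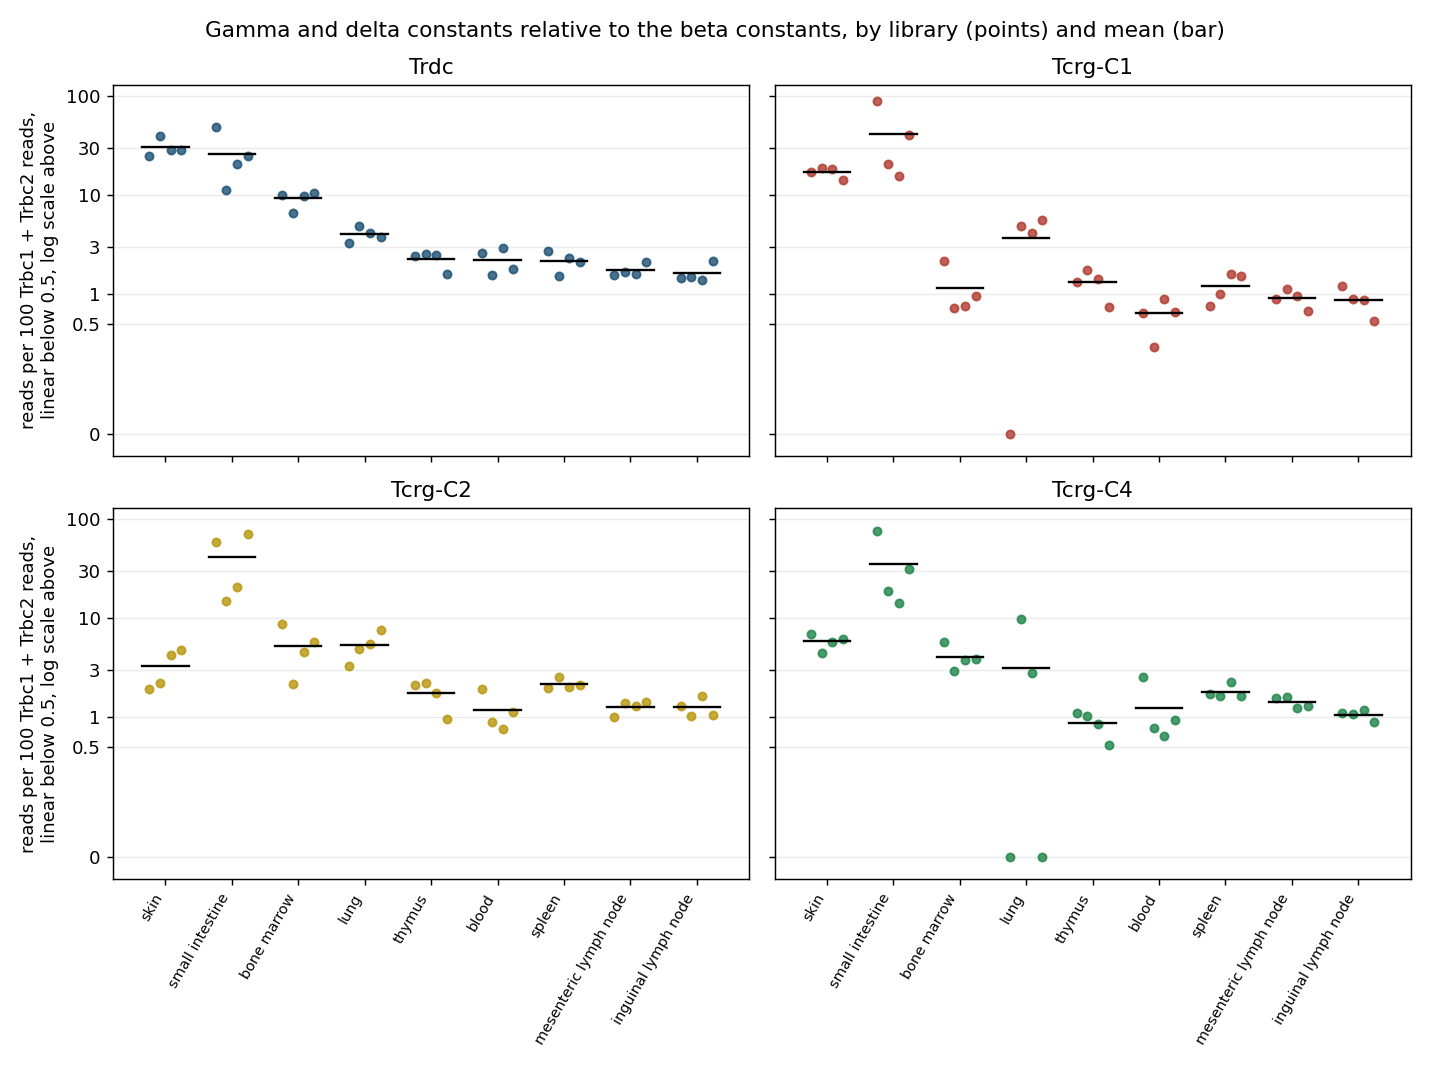
Reads of each constant gene per 100 reads of Trbc1 and Trbc2 in the tissues with at least 10 such reads in every library and T cell RNA present, with one point per library and a bar at the mean; the axis is linear below 0.5 and logarithmic above. Skin and small intestine stand above the lymphoid organs for Trdc (30.4 and 26.3 per 100) and Tcrg-C1, whereas small intestine alone is far above them for Tcrg-C2.

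These ratios were tested in 5 pairs of tissues by an exact two-sided permutation test on the log2 ratio, 20 tests in all, in which the smallest p that 4 against 4 libraries can give is 0.0286. Skin stood above inguinal node without overlap for all 4 constants, by 18.8-fold for Trdc, 20.3-fold for Tcrg-C1, 2.72-fold for Tcrg-C2 and 5.68-fold for Tcrg-C4. Small intestine stood above mesenteric node without overlap for all 4, by 13.6-fold for Trdc, 36.1-fold for Tcrg-C1, 26.6-fold for Tcrg-C2 and 20.2-fold for Tcrg-C4. Mesenteric node stood 1.35-fold above inguinal node for Tcrg-C4. Each of these 9 had the smallest possible exact p of 0.0286, which became 0.0635 after Benjamini-Hochberg adjustment over 20 tests, so none passed at 0.05. Thymus was 1.39-fold above inguinal node for Trdc (exact permutation p = 0.0571, adjusted 0.104) and 0.80-fold for Tcrg-C4.

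The denominator matters in skin. Its Trbc2 reads outnumbered its Trbc1 reads by 6.62 (563 against 85 reads; 5.26 to 8.42, 95% interval for counting error), where blood, spleen, both nodes, thymus and small intestine ran from 1.77 to 2.35. Skin held 38 Trac reads, so that there were 14.8 Trbc2 reads per Trac read, against 1.41 in inguinal node and 5.87 in thymus. Per 100 Trac reads, Trdc counted 557, 408, 545 and 600 in skin, 48.1 ± 14.5 in small intestine, 32.7 ± 5.29 in bone marrow, 20.5 ± 0.654 in thymus and 3.23 ± 0.808 in inguinal node. Per 100 reads of Cd3e, Cd3d and Cd3g, which both lineages use, Trdc averaged 36.5 ± 6.7 in skin, 18.9 ± 3.71 in small intestine, 11.9 in bone marrow, 7 ± 1.56 in thymus and 1.94 in inguinal node. Skin had the highest mean and inguinal node the lowest among these 9 tissues with each of the 3 denominators. Per beta constant read, however, all skin libraries lay within the range of small intestine, whose mean without replicate 2 (31.4) was above that of skin (30.4).

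With Trac or with the CD3 genes below the line, 14 of the 20 tests reached the smallest exact permutation p and then passed after adjustment (0.0408). The unadjusted p of the 9 tests above stayed at 0.0286. Their adjusted p fell only because more tests shared that value, so passing is no stronger evidence for them. Skin exceeded inguinal node for Trdc by 157-fold per Trac read and 18.8-fold per CD3 read. The minimum of 10 denominator reads in every library was applied to Trbc1 and Trbc2 only. Skin held 7, 13, 11 and 7 Trac reads, so its tests per Trac read did not meet that minimum. The 157-fold value and the passing of those tests therefore rest on few reads. Small intestine exceeded mesenteric node for Trdc by 12.8-fold per Trac read and 8.12-fold per CD3 read. Thymus exceeded inguinal node for Trdc by 6.45-fold per Trac read and 3.56-fold per CD3 read, and for Tcrg-C4 by 3.70-fold and 2.04-fold, the opposite direction to its ratio per beta constant read. For Tcrg-C2 blood stood below spleen, at 0.502 per Trac read and 0.455 per CD3 read. Brain shows a limit of the beta denominator: it held 102 Trbc2 reads and 1 Trbc1 read, with 6 reads of the 3 CD3 genes and none of the 4 gamma delta constants.

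**Figure D3:**
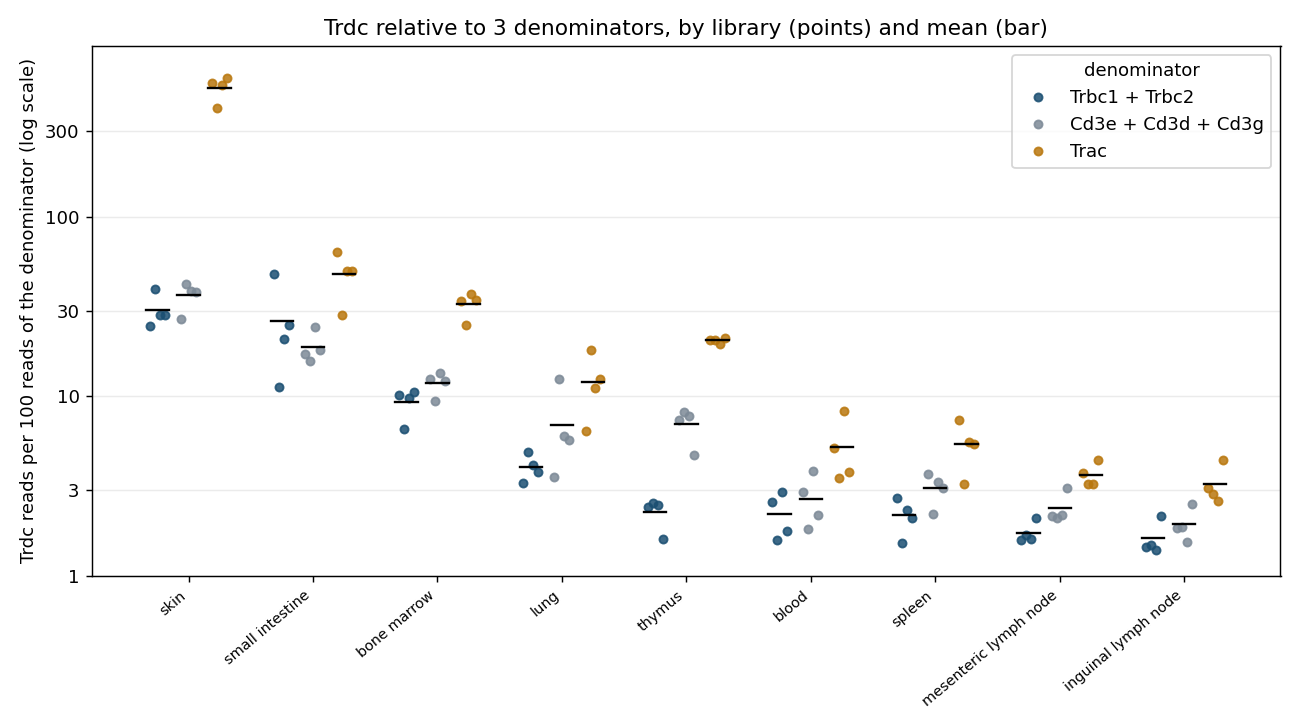
Trdc reads per 100 reads of 3 denominators (Trbc1 and Trbc2; Cd3e, Cd3d and Cd3g; Trac) in 9 tissues on a logarithmic axis, with one point per library and a bar at the mean. Skin has the highest mean with each denominator, at 30.4, 36.5 and 528, and thymus lies above inguinal node most clearly when set against Trac (20.5 and 3.23). The skin value of 528 rests on 38 Trac reads.

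Levels were next compared between pairs of related tissues, each fitted on its own 8 libraries with edgeR. Between thymus and inguinal node all 4 constants were higher in thymus, where 12.4% of all genes were called higher. The log2 change was 2.83 ± 0.21 (SE) for Trdc, 2.91 ± 0.26 for Tcrg-C1, 2.86 ± 0.22 for Tcrg-C2 and 2.10 ± 0.21 for Tcrg-C4, with adjusted p from 7.51e-08 to 1.47e-06. Of the alpha beta constants, Trbc1 averaged 1197 ± 130 CPM in thymus and 219 ± 32.8 CPM in inguinal node, and Trbc2 2519 ± 180 and 520 ± 68.8 CPM. Trac averaged 413 ± 100 CPM in thymus and 371 ± 42.5 CPM in inguinal node, with overlapping libraries.

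Between skin and inguinal node the changes of the constants had both signs. Tcrg-C2 was called lower in skin (log2 change -1.95 ± 0.31, adjusted p = 0.000114), beside 18.4% of all genes, and no constant was called higher, beside 22.4% of all genes; 2 were higher at an unadjusted p below 0.05, and DESeq2 also called none higher. Those were Trdc (log2 change 0.78 ± 0.23, adjusted p = 0.0107) and Tcrg-C1 (0.85 ± 0.25, adjusted p = 0.0102), which passed on p but not on size, and every skin library lay above every inguinal library for Tcrg-C1. Tcrg-C4 was at -0.95 ± 0.23 (adjusted p = 0.00297), with every skin library below every inguinal library. These last calls sit at the threshold: Tcrg-C1 was called higher without inguinal node replicate 1 (1.07), and Tcrg-C4 was called lower without inguinal node replicate 3 (-1.01), with no filter (-1.02) and with scaling by library totals (-1.22). T cell RNA as a whole was far lower in skin, with Cd3e at 22.1 ± 2.6 CPM in skin and 189 ± 18.9 CPM in inguinal node, Trac at 3.98 ± 1.54 and 371 ± 42.5 CPM, and Trbc2 at 57.6 ± 3.48 and 520 ± 68.8 CPM.

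Skin exceeded the female reproductive tract, another lined organ, for both constants that had enough reads to be tested. In the tract Trdc had 3, 4, 0 and 1 reads and Tcrg-C1 6, 3, 0 and 2. Both thus passed the filter through skin alone, which largely set their direction in advance. Trdc averaged 20.1 ± 4.21 CPM in skin and stood at 0.727, 0.931, 0 and 0.851 CPM in the tract (log2 change 4.49 ± 0.38, adjusted p = 2.6e-06). Tcrg-C1 averaged 11.4 ± 1.53 CPM in skin and 0.964 ± 0.771 CPM in the tract (3.23 ± 0.39, adjusted p = 5.07e-05). In this pair 14.6% of all genes were called higher in skin. Without the shallow replicates 3 and 4 of the tract the changes were 4.45 and 3.30 and Tcrg-C4, which then passed the filter, was called too (2.56). Tcrg-C2 and Tcrg-C4 did not pass the filter in this pair, and with no filter they were called as well, at 3.14 and 2.60.

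No gamma delta constant was called between small intestine and mesenteric node, though every small intestine library held less Trdc than every mesenteric library. The same was true of beta constant RNA. Trdc was 6.46, 2.61, 5.76 and 4.34 CPM in small intestine, against 7.46, 6.55, 6.66 and 7.95 CPM in mesenteric node (log2 change -0.57 ± 0.28, adjusted p = 0.0835). Tcrg-C1 was 12, 4.79, 4.32 and 7.06 CPM in small intestine, against 4.26, 4.36, 3.99 and 2.57 CPM (0.87 ± 0.35, adjusted p = 0.0372, under the size threshold). Tcrg-C2 (0.45 ± 0.33, adjusted p = 0.236) and Tcrg-C4 (adjusted p = 0.991) did not pass either. None of the 4 was called, beside 23.1% of all genes higher and 22.5% lower; 1 was higher at an unadjusted p below 0.05 and DESeq2 called none. Tcrg-C1 was called higher without small intestine replicate 2 (1.04) or replicate 3 (1.09), and scaling by library totals turned Tcrg-C2 to -0.080 and Tcrg-C4 to -0.54 and called Trdc lower (-1.10). Over the same libraries Trbc1 averaged 7.31 ± 2.96 CPM in small intestine and 129 ± 14.3 CPM in mesenteric node, Trbc2 13.1 ± 3.51 and 285 ± 28.5 CPM, and Cd3e 8.66 ± 2.6 and 102 ± 11.1 CPM.

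Small intestine and colon could not be compared by the fit with its filter, since no constant passed it. The 4 libraries of small intestine held 44 reads of Trdc and those of colon 3. Colon libraries were shallower, with 750212 to 951914 counts against 2072584 to 3035803 in small intestine. Trdc from the summed reads was at 4.84 CPM in small intestine and 0.684 CPM in colon. With no filter Trdc was higher in small intestine by 2.62 ± 0.75 (adjusted p = 0.0026), Tcrg-C1 by 2.75 ± 0.64 (0.000132) and Tcrg-C2 by 1.42 ± 0.50 (0.0195), while Tcrg-C4 differed by 0.78 ± 0.50 (0.261); these are log2 changes from few reads in colon. With the filter, 13.5% of all genes tested were called higher in this pair.

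Between the nodes, and between blood and spleen, no constant was called. All 4 constants had a lower mean in mesenteric than in inguinal node, by log2 changes from -0.70 for Tcrg-C1 and Tcrg-C2 to -0.31 for Tcrg-C4. Tcrg-C2 alone had an adjusted p under the threshold (0.0146), and no constant was called lower, beside 1.78% of all genes, though 3 had an unadjusted p below 0.05 and DESeq2 called none. In blood against spleen Trdc was at 0.05 ± 0.26 (adjusted p = 0.878), Tcrg-C2 at -0.90 ± 0.31 (0.0216) and Tcrg-C4 at -0.72 ± 0.34 (0.0846), with Tcrg-C1 too low to test. None of these was called, beside 13.9% of all genes called lower; 1 was lower at an unadjusted p below 0.05 and DESeq2 called none, while Tcrg-C2 was called lower without blood replicate 4 (-1.002) and with library totals (-1.08), which also turned Trdc to -0.13.

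**Figure D4:**
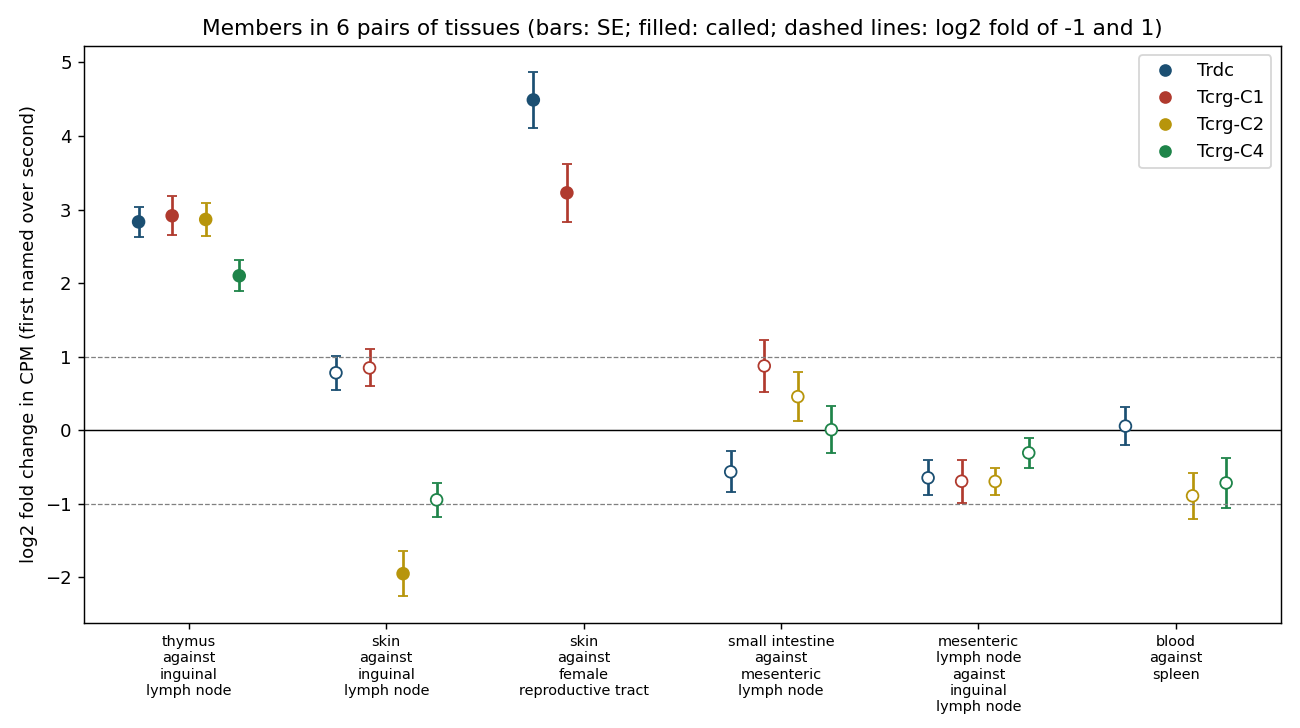
Log2 change in CPM of each constant between the first and the second named tissue of 6 pairs, with bars for the SE; filled points passed both the adjusted p and the size threshold (dashed lines at -1 and 1), and a missing point was not tested. All 4 constants are higher in thymus than in inguinal node, and skin against inguinal node has Trdc and Tcrg-C1 above 0 with Tcrg-C2 and Tcrg-C4 below it.

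The make-up of the gamma constants differed between organs. Tcrg-C1 took 65.1% of the 172 gamma constant reads of skin (95% exact binomial interval 57.5 to 72.2, counting error only), with 65.9%, 73.5%, 65.0% and 56.8% in its 4 libraries. In inguinal node it took 28.5% of 470 reads (24.5 to 32.8), with 33.2%, 29.7%, 23.9% and 21.4% by library, so the organs did not overlap. Tcrg-C2 took 12.8% in skin and 38.5% in inguinal node, and Tcrg-C4 22.1% and 33%. The female reproductive tract, with 19 reads, had 57.9% from Tcrg-C1, but 38.5% of 13 reads without replicate 1 and 60% of 15 without the shallow replicates 3 and 4. Small intestine (34.6% of 179 reads) and thymus (33.4% of 1984) came next, and bone marrow had 11.1% of 54 reads (4.19 to 22.6). The ratio of Tcrg-C1 to the other 2 gamma constants was 5.04-fold higher in skin than in inguinal node and 1.53-fold higher in small intestine than in mesenteric node, each without overlap and each with the smallest exact permutation p of 0.0286 (adjusted 0.1 over 14 tests that were chosen after these values were seen). As the counts of Tcrg-C1 and Tcrg-C2 can trade reads, both of these shares are uncertain. Summing Tcrg-C1 and Tcrg-C2, also chosen after the values were seen, removes that exchange: they took 77.9% of gamma constant reads in skin (134 reads, beside 38 of Tcrg-C4) and 67.0% in inguinal node (315 beside 155). Libraries ran from 73.2% to 82.4% in skin and from 64% to 69.5% in inguinal node, so they did not overlap, but the difference is far smaller than for Tcrg-C1 alone, and thymus (75.7% to 79.3%) overlapped skin.

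**Figure D5:**
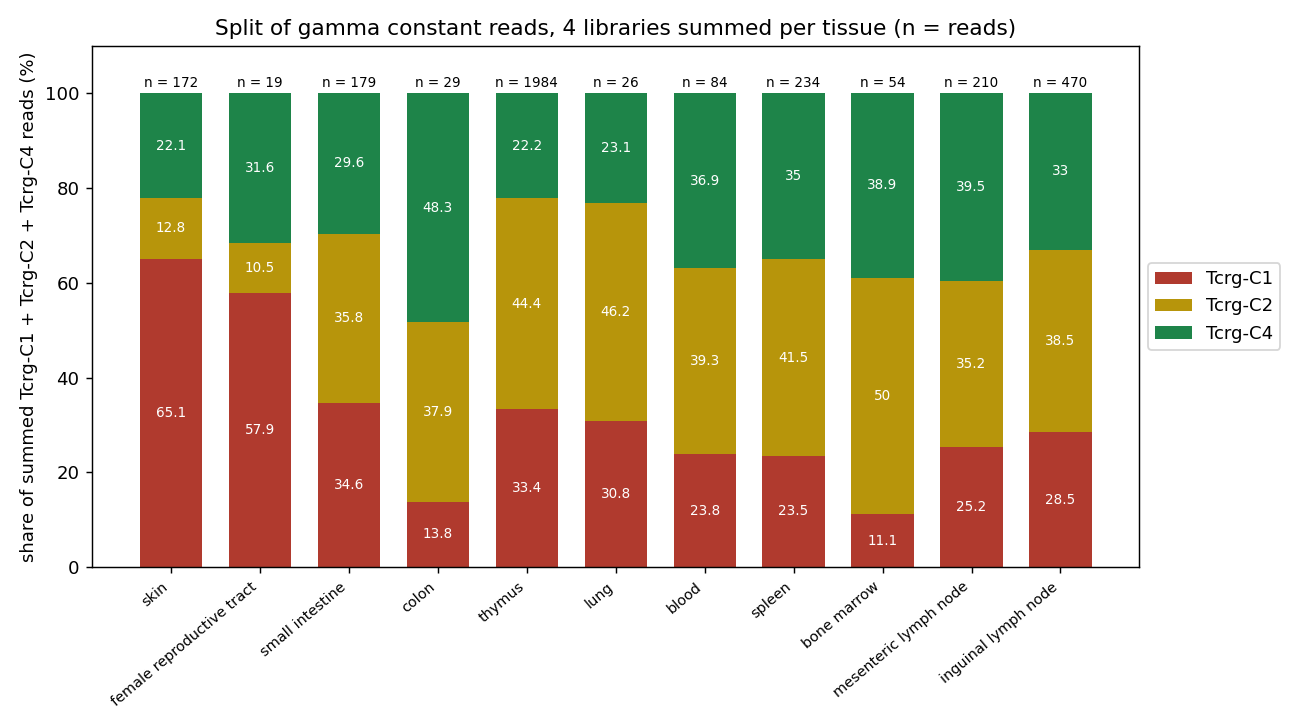
Share of Tcrg-C1, Tcrg-C2 and Tcrg-C4 in their summed reads by tissue, 4 libraries added together, with the number of reads above each bar. Tcrg-C1 makes up 65.1% in skin and between 11.1% and 34.6% in the tissues from small intestine to inguinal node; the bars of the female reproductive tract, colon and lung rest on 19, 29 and 26 reads.

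The balance of delta to gamma constant reads also varied. There were 113 Trdc reads per 100 gamma constant reads in skin (91.4 to 139), 57.1 in thymus, 50.2 in inguinal node and 24.6 in small intestine (17.3 to 34.4). Bone marrow (87.0, 57.6 to 131) and blood (78.6, 56 to 110) lay between skin and thymus, and libraries of both overlapped those of skin. Skin was 2.24-fold above inguinal node and 2.72-fold above the female reproductive tract in this ratio without overlap (exact permutation p = 0.0286, adjusted 0.1); without replicates 3 and 4 of the tract the second value was 2.25-fold. Small intestine was at 0.509 of mesenteric node (exact permutation p = 0.0571, adjusted 0.133), with overlapping libraries.

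Variable segments of the same receptors gave few reads. Reads come from the opposite end of the transcript, but this holds for all segments, and their counts were very uneven. The cause of the low and uneven counts was not tested. The table held 23 gamma or delta variable segments, of which 21 had a read and 2 passed the filter, with 699 reads in all beside 3477 gamma constant and 1941 Trdc reads. They include segments named for both the alpha and the delta chain, such as Trav14d-3-dv8 (27 reads) and Trav21-dv12 (24 reads). Reads of these joint segments can come from alpha chains, so the 699 reads need not all be gamma delta RNA. Trdv3 (7 reads) is annotated as a pseudogene. Trgv2, a gamma segment, had 240 reads, 151 in thymus, 26 in spleen, 25 in inguinal node and 6 in skin. Trdv2-2, a delta segment, had 169, with 90 in thymus, 25 in inguinal node, 17 in spleen, 14 in blood and 1 in skin. Tcrg-V1 had 112, with 37 in thymus, 25 in mesenteric node, 19 in spleen and 17 in inguinal node.

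Trdv4, the delta segment used by dendritic epidermal T cells, was distributed otherwise. It had 27 reads, of which 18 were in skin (5, 3, 6 and 4 by library), 3 in the female reproductive tract, 2 in heart and 0 in thymus. There was 1 each in blood, bone marrow, brain and inguinal node. Gm30275 is annotated on the opposite strand across Trdv4, and the use of strand in counting is not known. Heart and brain held no Trdc reads, and the origin of their Trdv4 reads was not tested. Tcrg-V5 had 4 reads in all libraries and 0 in skin. Trdv1 had 23 reads, 18 of them in thymus. At this depth a segment without reads in a tissue cannot be called absent.

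Of the 20 places for the 5 genes whose tissue pattern was most like that of each constant, 9 were held by other constants. Over the mean log2(CPM + 1) of 15 tissues, Pearson's r with Trdc was 0.94 for Tcrg-C1, 0.93 for the T cell adaptor gene Trat1, 0.92 for Socs1, a suppressor of cytokine signalling, 0.92 for the chromatin gene Brd1 and 0.92 for Tcrg-C4, among 15254 candidate genes. Tcrg-C1 was most like Trdc (0.94), then Tcrg-C4 (0.91), the pseudogene H2-T-ps (0.90), the chemokine receptor gene Ccr4 (0.90) and Tcrg-C2 (0.89). Tcrg-C2 and Tcrg-C4 were most like each other (0.97), followed by H2-T-ps (0.92 and 0.94) and Socs1 (0.92 for both); Tcrg-C2 then had the cytokine receptor gene Il12rb1 and the adaptor gene Sla2 (0.91 each). The alpha constant was farther off, at 0.78 with Trdc and 0.67 with Tcrg-C1. The beta constants and Cd3e were closer to Trdc, with Trbc2 and Cd3e at 0.91 and Trbc1 at 0.87, beside 0.90 for Tcrg-C2. Tcrg-C2 was likewise at 0.90 with both Trbc1 and Trdc. With Tcrg-C1, Trbc2, Cd3e and Trbc1 were lower, at 0.80, 0.81 and 0.78. The points share the library, the depth and the tissue, and thymus leads in nearly all of these genes, so these values are a description.

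Other genes of the receptor complex and of gamma delta biology were taken from lists, and each list is given by its counts beside all genes tested. Genes near 0 in a tissue of a pair passed the filter through the other tissue, so the filter largely set their direction. In skin against inguinal node, all 7 tested genes of the signalling complex were lower, with a median log2 change of -4.39 beside -0.02 for all genes. In this pair 22.4% of all genes were called higher and 18.4% lower. The kinase gene Lck was at 4.74 ± 1.73 CPM in skin and 288 ± 26.7 CPM in inguinal node, the adaptor gene Lat changed by -5.04 and the kinase gene Zap70 by -4.39. Of 12 genes of gamma delta transcription and the IL-17 programme 4 were higher and 5 lower. The lower ones included Blk, a kinase of IL-17-producing gamma delta cells and of B cells (0.538 CPM in skin and 83.7 CPM in inguinal node), Cd27, a receptor of interferon-producing gamma delta cells and naive T cells (0.889 and 115 CPM), and the chemokine receptor gene Ccr6 (0.527 and 41.6 CPM). B cell markers, 5 of 5 lower in skin, moved with them, and their part in the change of Blk and Ccr6 was not tested.

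Skin had 13 of 17 tested butyrophilin-like and ligand genes higher than inguinal node and 3 lower, beside 22.4% and 18.4% of all genes. Those at or near 0 in inguinal node, such as the Skint genes named here, passed the filter through skin alone. This set their direction in advance. Among them were Skint genes, a family expressed by skin epithelium of which Skint1 is needed for the selection of dendritic epidermal T cells in mice. Skint9 was at 135 ± 18.3 CPM in skin and at 0 in inguinal node, Skint5 at 118 ± 11.6 and 0.0601 CPM, Skint6 at 94.5 ± 5.38 and 0.062 CPM and Skint11 at 45.8 ± 8.25 and 0 CPM. The list of epithelial T cell genes went the other way in this pair, with 0 of 13 higher and 11 lower, among them Cd8a (1.06 and 150 CPM), Il2rb, a cytokine receptor chain (log2 change -4.03), Cd160 (-3.50) and the granzyme gene Gzma (-3.48). Summed NK and ILC1 markers ranged from 4.3 to 11.2 CPM in skin and from 37.7 to 55.2 CPM in inguinal node.

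Against the female reproductive tract, skin had 5 of 6 signalling genes higher and 0 lower, with Cd3e at 22.1 ± 2.6 CPM in skin and 1.88 ± 1.57 CPM in the tract, Cd3g at a log2 change of 3.44 and Cd247 at 3.12. Of 7 epithelial T cell genes 2 were higher and 2 lower: Areg, an epidermal growth factor ligand (6.43), the gut-homing receptor gene Ccr9 (1.3), the integrin gene Itga1 (-2.05) and Il2rb (-1.05). Of 8 genes of gamma delta transcription and the IL-17 programme, 1 was higher and 2 were lower, Sox4 (-2.83) and Sox13 (-1.58). Of all genes tested in this pair, 14.6% were called higher and 14% lower.

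In small intestine against mesenteric node, all 7 tested signalling genes were lower, with a median of -4.20 beside 0.01 for all genes. Among them was the signalling chain gene Cd247 (1.12 and 41.8 CPM). In this pair 23.1% of all genes were called higher and 22.5% lower. Of the 13 epithelial T cell genes 4 were higher and 6 lower. Gzma was at 75.4 ± 33.1 CPM in small intestine and 7.8 ± 1.84 CPM in mesenteric node, the granzyme gene Gzmb at 14.2 ± 4.21 and 1.11 ± 0.566 CPM, Areg at a log2 change of 4.44, and Cd8a at 6.86 ± 3.38 and 67.7 ± 6.41 CPM. Among 6 butyrophilin-like and ligand genes 3 were higher and 3 lower, and Btnl1, an intestinal epithelial gene known to maintain intraepithelial gamma delta cells in mice, was at 131 ± 26.3 CPM in small intestine and 0.352 ± 0.117 CPM in the node. Btnl2 was at 74.3 ± 19.9 and 2.84 ± 0.663 CPM, Btnl9 was lower (-5.21), and H60b was at 0 in small intestine and at 10.1 ± 1.08 CPM in the node. Of 11 genes of gamma delta transcription and the IL-17 programme 6 were higher and 5 lower, with Sox13, a transcription factor gene of gamma delta cells, at 48 ± 6.34 and 3.48 ± 1.01 CPM, Blk at -4.97, Cd27 at -4.95 and Ccr6 at -4.22. The genes of this list are not limited to gamma delta cells: they summed to a mean of 823 CPM in kidney, which held no Trdc reads. Which cells held the Sox13 RNA of small intestine was not tested. Summed NK and ILC1 markers ranged from 1.6 to 3.5 CPM in small intestine, with Eomes and Klra8 at 0, and from 20.3 to 31.2 CPM in mesenteric node.

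Against colon, small intestine had 4 of 6 tested epithelial T cell genes higher and 0 lower, beside 13.5% and 12.2% of all genes. Gzma was at 75.4 ± 33.1 CPM in small intestine and 2.64 ± 2.24 CPM in colon, the junctional adhesion gene Jaml at 59.7 ± 6.43 and 3.29 ± 2.42 CPM, Gzmb at a log2 change of 3.72, and Ccr9 at 11.4 ± 2.37 CPM and 0. Btnl1 (131 ± 26.3 and 26.2 ± 12.4 CPM) and Btnl2 (74.3 ± 19.9 and 4.14 ± 2.66 CPM) were higher as well. Of 7 genes of gamma delta transcription and the IL-17 programme 2 were higher, the transcription factor genes Maf (4.85) and Sox4 (2.28), and 2 lower, the cytokine receptor genes Il17re (-1.99) and Il1r1 (-1.27); most are also expressed outside T cells.

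In thymus against inguinal node 5 of 8 signalling genes were higher and 0 lower, with a median of 1.18 beside -0.03 for all genes. Ptcra, the partner chain of the early beta receptor, was at 29.4 ± 4.05 CPM in thymus and 0 in inguinal node, Lck at 989 ± 87.5 and 288 ± 26.7 CPM, Lat at a log2 change of 1.66 and Cd3e at 1.21. Of 13 genes of gamma delta transcription and the IL-17 programme 4 were higher and 4 lower, beside 12.4% and 16.5% of all genes. The transcription factor gene Sox4 was at 86.8 ± 7.35 and 21.2 ± 4.93 CPM, Blk at -4.10 and Ccr6 at -3.19. Of 13 epithelial T cell genes 3 were higher (Ccr9 3.75, Gzma 2.43 and Cd8a 2.14) and 7 lower, Itga1 among them (-2.04). Among the butyrophilin-like and ligand genes 6 of 10 were higher, with Skint7 at 9.07 ± 2.69 and 0.0601 CPM, Skint10 at 10.7 ± 2.22 and 0.18 CPM and Ulbp1 at 27.9 ± 0.961 and 6.47 ± 1.51 CPM, and 3 were lower, Btnl9 the most (-3.11). Summed alpha beta markers ranged from 5669 to 6743 CPM in thymus and from 1349 to 1731 CPM in inguinal node.

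Mesenteric against inguinal node, where 5.44% of all genes were called higher and 1.78% lower, had none of 7 signalling genes called. It had 0 of 5 butyrophilin-like genes called and no epithelial or gamma delta programme gene higher. The lower ones were 2 of 12 gamma delta programme genes, 5830411N06Rik (-3.75) and Sox4 (-1.28), and 4 of 12 epithelial genes, among them the chemokine gene Xcl1 (-1.16), Cd160 (-1.09) and Cd8a (-1.06). Blood against spleen had none of 7 signalling genes called, beside 8% of all genes higher and 13.9% lower. Of 9 gamma delta programme genes 0 were higher and 3 lower (Il1r1 -6.26, Sox13 -3.38 and Maf -3.07), and of 12 epithelial genes Gzmb was higher (1.76) while Itga1 (-5.01) and Cd160 (-1.04) were lower. Of 6 butyrophilin-like genes in that pair 2 were higher, Skint3 (1.41) and Btnl2 (1.28), and 2 lower, Btnl9 (-4.03) and Ulbp1 (-1.73).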

How the data were processed

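RNA of 60 mouse tissue samples was sequenced from the poly(A) end with barcoded oligo(dT) primers, per the labels' protocols. The values used are raw read counts per gene, as deposited by the authors; STAR, featureCounts, FastQC and the mm10 genome are named in the submitters' processing notes. The sources used here give no versions, use of strand or handling of reads that fit several genes. The table held 54532 genes, of which 54409 identifiers matched GENCODE M21.

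Counts were scaled by TMM and tested with edgeR 4.0.16 (glmQLFit, glmQLFTest; R 4.3.3), two-sided, after filterByExpr (minimum count 10, minimum total 15), with Benjamini-Hochberg adjustment over all genes tested. All 60 libraries entered the fits of 1 tissue against the other 14 (18562 genes), and each of 7 pairs was fitted on its own 8 libraries. Fits without a library kept the trended dispersion of the full fit. Ratios of reads were compared by exact permutation of log2 ratios with 0.5 added to both counts, where every library had at least 10 Trbc1 and Trbc2 reads, using Python 3.11.15, numpy 2.4.6, pandas 2.3.3, scipy 1.17.1 and matplotlib 3.10.9. Intervals (95%) and limits of 3 reads cover counting error only, and reads without molecular identifiers are not independent molecules. Alternatives were DESeq2 1.42.0 (size factors or Wald test), library totals, no filter, limma 3.58.1, a replicate block, the fit of all libraries, other denominators and added counts, and leaving out libraries. The edgeR scripts were tested on simulated data.

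Libraries were grouped by tissue label. No 2 replicates of a tissue held identical counts in 90 pairs checked. The series speaks of replicate mice, but no label ties a replicate number to a mouse across tissues, so p-values measure only the spread between these samples. The genes and lists were chosen with earlier results of these data known. The genes named were the 4 constants, the other receptor constants, Cd3e and the variable segments, then from each list up to 4 called genes per comparison with at least 5 CPM on either side, by size of change, and for each constant the 5 genes most like it. 1 list gene that this rule names is not reported here.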

Additional observations from a re-analysis of the deposited data

Results flagged for a closer look

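A single library stood apart from the other 3 of its tissue, by Dixon's test at the 95% level, in 12 of 86 groups of 4 libraries (50 of levels and 36 of reads per 100 Trbc1 and Trbc2 reads); chance gives about 1 in 20, and most of these groups rest on a few reads.

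In levels, Tcrg-C1 was 1.24 CPM in bone marrow replicate 1, against 0.374 to 0.432 CPM in the others, and 1.13 CPM in heart replicate 4, against 0. Tcrg-C2 was 2.08 CPM in female reproductive tract replicate 3 (1 read in the shallowest library), against 0 to 0.233 CPM, 0.338 CPM in kidney replicate 3, against 0, and 0 in liver replicate 2, against 0.665 to 0.734 CPM. Tcrg-C4 was 3.3 CPM in bone marrow replicate 1, against 1.69 to 1.87 CPM, and 2.86 CPM in skin replicate 2, against 4.08 to 4.25 CPM.

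Per 100 Trbc1 and Trbc2 reads, Trdc was 2.15 in inguinal lymph node replicate 4, against 1.38 to 1.48, and 1.61 in thymus replicate 4, against 2.41 to 2.56. Tcrg-C1 was 2.17 in bone marrow replicate 1, against 0.73 to 0.962. Tcrg-C4 was 2.57 in blood replicate 1, against 0.64 to 0.934, and 2.25 in spleen replicate 3, against 1.62 to 1.7.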

How the results depend on the processing

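Of 593 alternative values of the constants' log2 changes 565 kept their direction and their side of the threshold, 10 reversed, 9 fell below it and 9 passed it; all 4 constants stayed called higher in thymus, against the other tissues and against inguinal node, in every alternative run, and in inguinal node against the other tissues. Changes near 0 reversed: for Trdc in blood against spleen -0.13 with library totals and -0.059 to 0.23 leaving out libraries, for Tcrg-C2 in small intestine against mesenteric node -0.080 with library totals, and for Tcrg-C4 there -0.54 with library totals, -0.025 with no filter, -0.013 with the replicate block and -0.35 to 0.20 leaving out libraries. Numbers of constants called against the other tissues moved as follows. limma (added after the data were seen) called 1 higher in blood, 0 higher and 1 lower in bone marrow, 2 higher in mesenteric node, 2 lower in colon, 3 lower in the female reproductive tract, 1 lower in lung and 4 lower in each of brain, heart, kidney and liver. The DESeq2 Wald test called 4 lower in brain, heart and kidney and 2 in liver and the female reproductive tract. Colon had 1 higher with DESeq2 size factors, library totals, no filter or the replicate block. In pairs, skin against the female reproductive tract had 4 higher with the fit of all 60 libraries or no filter, small intestine against colon 3 higher with the same 2 settings, skin against inguinal node 2 lower with library totals or no filter, and small intestine against mesenteric node and blood against spleen 1 lower with library totals. Leaving out 1 library gave 0 to 1 lower in blood against spleen, 1 to 2 higher in bone marrow, 0 to 2 higher in colon, 2 to 3 higher in blood, 0 to 1 higher and 1 to 2 lower in skin against inguinal node, and 0 to 1 higher in small intestine against mesenteric node. The causes were not tested.

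With the CD3 genes and with Trac as denominator, 14 of the 20 ratio tests passed after adjustment, because more tests shared the smallest p. In skin against inguinal node the log2 differences were 4.24 and 7.29 for Trdc, 4.35 and 7.40 for Tcrg-C1, 1.44 and 4.5 for Tcrg-C2 and 2.51 and 5.56 for Tcrg-C4. In small intestine against mesenteric node they were 3.02 and 3.68, 4.43 and 5.08, 3.99 and 4.65, and 3.59 and 4.25 for the same genes. In thymus against inguinal node they were 1.83 and 2.69, 1.92 and 2.77, 1.78 and 2.64, and for Tcrg-C4 1.03 and 1.89, reversed from -0.33. Tcrg-C2 in blood against spleen was at -1.14 and -0.99, Tcrg-C4 in mesenteric against inguinal node at 0.61 and 0.52, and Trdc in blood against spleen reversed to -0.21 and -0.069 (adjusted exact permutation p 0.457 and 0.914). Leaving out 1 library, Tcrg-C1 in mesenteric against inguinal node ran from -0.087 to 0.29, Tcrg-C2 there from -0.029 to 0.20 and Trdc in blood against spleen from -0.12 to 0.18. None of these 5 pairs holds a library in doubt. Skin held 7, 13, 11 and 7 Trac reads, so its values per Trac read did not meet the minimum of 10 reads set for Trbc1 and Trbc2.

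Correlations of deviations between same-numbered libraries ran from -0.139 to 0.210 over 7 pairs of tissues, and in none were all 4 above 0.1 (3 of 4 were between the nodes), so the numbers were not taken as pairs; the replicate block moved the count in colon and the Tcrg-C4 change above, and gave Trdc per beta constant read in skin against inguinal node an adjusted exact permutation p of 0.208, where 4 pairs cannot give an unadjusted p under 0.125. Over all genes, library totals moved 16 of 44 counts of calls by more than 1.5 times, no filter 14, limma 9 of 30, and the DESeq2 Wald test and the fit of all libraries 4 each. Library totals moved the share of calls that were higher by over 10 points in 16 of 22 comparisons (thymus 61% to 80.3%, small intestine against mesenteric node 50.6% to 31.7%) and the median gene in skin against inguinal node to -0.29, where Tcrg-C4 then stood at -1.22. Library totals moved 16 of 50 mean levels by more than their SD.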
